A study of Homo sapiens with 2 samples.

Results

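The 84 ribosomal protein genes in the count tables were examined in single human embryonic stem cells treated with bone morphogenetic protein 4 (BMP4), a differentiation signal. They were taken by symbol, as RPS or RPL followed by a number and at most a short suffix, together with RPSA, RPLP0, RPLP1 and RPLP2, and with the Y-linked copies left out. Of 33538 genes in the tables, 32 members encode proteins of the small (40S) subunit and 52 encode proteins of the large (60S) subunit, paralogs included. FAU, RPL36AL and RACK1, among others, also encode ribosomal proteins or a stable partner of the ribosome, but their symbols fall outside this rule and they are given apart. The library labelled WT came from H1, an established embryonic stem cell line, without editing. The library labelled GATA3 KO came from KO-GATA3-06, a clone of H1 cells with an inducible Cas9 cassette in which GATA3, a transcription factor gene, had been targeted. Both cultures were in mTeSR1 pluripotency medium with 50 ng/ml BMP4 for 48 h, although the protocol text for WT gives 1 h. Clone, cassette, genotype and library differ together between the groups and cannot be told apart. There was 1 library per group, so no test was possible, and every interval below is a 95% counting interval.

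Ribosomal proteins are needed in near equal numbers, because each ribosome holds a single copy of almost every one of them, the acidic stalk proteins RPLP1 and RPLP2 being the exception. Their mRNAs are among the most abundant of a growing cell. Most start with a 5′ terminal oligopyrimidine tract (5′ TOP), a cytosine at the first base followed by further pyrimidines, through which LARP1 and the mTOR pathway control their translation as a group. Several members have a paralog that can take the same place in the ribosome, and such paralogs are known for expression that differs between tissues, as RPL39L does in the testis.

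The transcript starts of the members with the lowest and highest ratios between the libraries that have an entry are shown first, since the tract is the feature that the family is known for. Each line runs from 10 bases before the start to 18 bases from it, from the RefSeq promoters of GRCh38.p14, with the pyrimidine run in capitals.
RPS10, chr6:34426052-34426079, minus strand: catgctccttCCTTTCCagccccggtac
RPL22L1, chr3:170870178-170870205, minus strand: ccgtagcttcCTCTCTgctctcgcggcc
RPS21, chr20:62387093-62387120, plus strand: ctagctgcttCCTTTCTCTCTCgcgcgc
RPL26, chr17:8383176-8383203, minus strand: gcgtgtagttCTCTTCCCTTTTgcggcc
RPL27A, chr11:8682782-8682809, plus strand: gaaggccttcCTTTTTCgtctgggctgc
RPL39, chrX:119791613-119791640, minus strand: ccgccagcttCCCTCCTCTTCCTTTCTC
RPL3, chr22:39319606-39319633, minus strand: gccgaccggCCTCTaccggcgggatttg
RPL4, chr15:66504838-66504865, minus strand: cgggagtggtaagcacttccttttcctg
RPS9, chr19:54200848-54200875, plus strand: gcttccgcgcCTCTTTCTCagtgaccgg
RPLP0, chr12:120201094-120201121, minus strand: ggcgcgaggcCCTTCTCTCgccaggcgt
RPS27L, chr15:63157460-63157487, minus strand: gatgccgagcgcagatcgcttgcagctt
The first 6 genes were lower in the GATA3 KO-labelled library and the next 4 were higher. RPL4, among the latter, and RPS27L, a paralog of RPS27 shown beside them, hold no such run at the annotated start. A run was counted where a C at the annotated start was followed by at least 4 pyrimidines on the transcribed strand. It was present in 43 of the 67 members with an entry (64.2%), against 4.0% of 27305 promoters. Allowing the C to lie within 3 bases of the start, as it does in RPL3, gave 48 members (71.6%) against 13.1% of all promoters. Genes with a run were thus found both among the members with the lowest and among those with the highest ratios.

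After cells with more than 7500 detected genes or more than 25% mitochondrial transcripts had been removed, 2519 of 3802 cells labelled WT and 4450 of 6221 cells labelled GATA3 KO remained. They held 99587274 and 175285931 unique molecular identifiers (UMIs), the counted transcript tags. Levels are UMIs summed over these cells per 1000000 UMIs (CPM). Each transcript gives a tag at its 3′ end whatever its length, so CPM is compared between genes without dividing by length. RNA freed from broken cells was not subtracted. The libraries shared 8 cell barcodes. GATA3 itself stood at 12.7 CPM (12.0 to 13.4) in the WT-labelled library and at 10.9 CPM (10.5 to 11.4) in the GATA3 KO-labelled library, and a 3′ tag does not show whether the coding sequence was cut, so this level did not check the labels.

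Ribosomal protein transcripts made up slightly less of all UMIs in the GATA3 KO-labelled library. They took 25.21% of UMIs (25.21 to 25.22) in the WT-labelled library and 24.03% (24.02 to 24.03) in the GATA3 KO-labelled library, a difference of -1.19 percentage points (-1.20 to -1.17). Transcripts of the small subunit went from 10.8% to 10.4% of UMIs between the libraries and those of the large subunit from 14.4% to 13.6%. The ratio of small to large subunit transcripts was 0.755 and 0.760. From cell to cell the share spread far more than this. The quartiles of the per-cell share were 24.1% and 26.4% around a median of 25.2% in the WT-labelled library, and 22.7% and 25.2% around 23.96% in the other, so the middle ranges of the cells overlapped.

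As a part of all UMIs, the share moved with the mitochondrial share of a cell. In the WT-labelled library, cells with 15 to 25% mitochondrial UMIs had a pooled ribosomal protein share of 23.7%, cells with 10 to 15% had 25.2% and cells with 5 to 7.5% had 26.8%. The same bins gave 22.3%, 24.04% and 25.4% in the GATA3 KO-labelled library. The order was the same in both, and in each of these bins the GATA3 KO-labelled library was lower. Mitochondrial and ribosomal protein UMIs share a denominator, so the share was taken again without mitochondrial UMIs. It was then 28.6% and 27.1%, a difference of -1.47 points. In the bins above, in the same order, it was 28.8%, 28.7% and 28.7% in the WT-labelled library. In the GATA3 KO-labelled library it was 27.2%, 27.2% and 27.3%, so the fall across these bins was no longer seen. Other bins still differed, with 27.9% and 26.4% in cells with 7.5 to 10% mitochondrial UMIs. Cells with at most 1% had 31.97% and 29.05%. By pooled share the GATA3 KO-labelled library was also lower in each of 5 bins of depth, but by the median of cells it was higher in the cells with 10000 to 30000 UMIs. There the pooled shares were 25.9% and 25.6% and the medians 25.4% and 26.4%. Cells with 30000 to 45000 UMIs gave pooled shares of 25.1% and 23.8%, and cells with over 60000 gave 25.3% and 24.4%.

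Levels of single members spanned a wide range around a common order. RPS12, a protein of the 40S head, had 8312 CPM in the WT-labelled library and 7140 CPM in the GATA3 KO-labelled library. RPS2, which lies near the mRNA entry channel, had 4738 and 7863 CPM. RPL41, the shortest ribosomal protein, had 7657 and 6569 CPM, RPLP1 had 7289 and 6830 CPM, and RPS23, which helps to hold decoding accurate, had 6628 and 5320 CPM. These were the 5 most abundant members by the mean of both libraries. At the other end stood RPL7L1 with 152 and 186 CPM, RPL17 with 123 and 155 CPM and RPL26L1 with 116 and 86.8 CPM. RPL3L, a paralog of RPL3 known from muscle, had 44 and 59 UMIs in all (0.442 and 0.337 CPM), and RPL10L, a paralog of RPL10 known from the testis, had 5 and 29 UMIs (0.0502 and 0.165 CPM). The rank correlation of the 84 levels between the libraries was 0.894, as a description across genes that are not independent. A low count need not be a low level here. GENCODE v44 lists 1600 pseudogenes named after members, 78 members have at least 1, and 1 of these pseudogenes is in the deposited table, so how reads that match several copies were counted was not tested.

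The comparison between the libraries asked which members differed within a set that is translated as a unit. Of the 84 members, 82 reached 20 CPM in the higher library, RPL3L and RPL10L being below. Of the 82, 31 were higher and 51 lower in the GATA3 KO-labelled library. The median log2 ratio of CPM plus 1 was -0.13, against 0.07 over all 5516 genes of at least 20 CPM, mitochondrial genes left out. Of these 5516 genes, 3066 were higher and 2450 lower. A ratio of at least 0.5 in size, which is 1.41-fold, was reached upward by 7 members and downward by 7 (8.54% each). Over all genes 17.8% were past it upward and 10.4% downward, and 28.2% in either direction. At this limit the share of members was below the background upward and close to it downward. A limit of 0.25 changed the order downward, with 35.4% of members and 24.1% of all genes lower. At a limit of 1 the shares were close, with 2 members (2.44%) and 1.99% of all genes lower. Just inside and outside the limit of 0.5 lay RPL39 at -0.500003 and RPS20 at -0.499777. In the small subunit 2 of 32 members were past it in each direction, and in the large subunit 5 of 50.

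**Figure D1:**
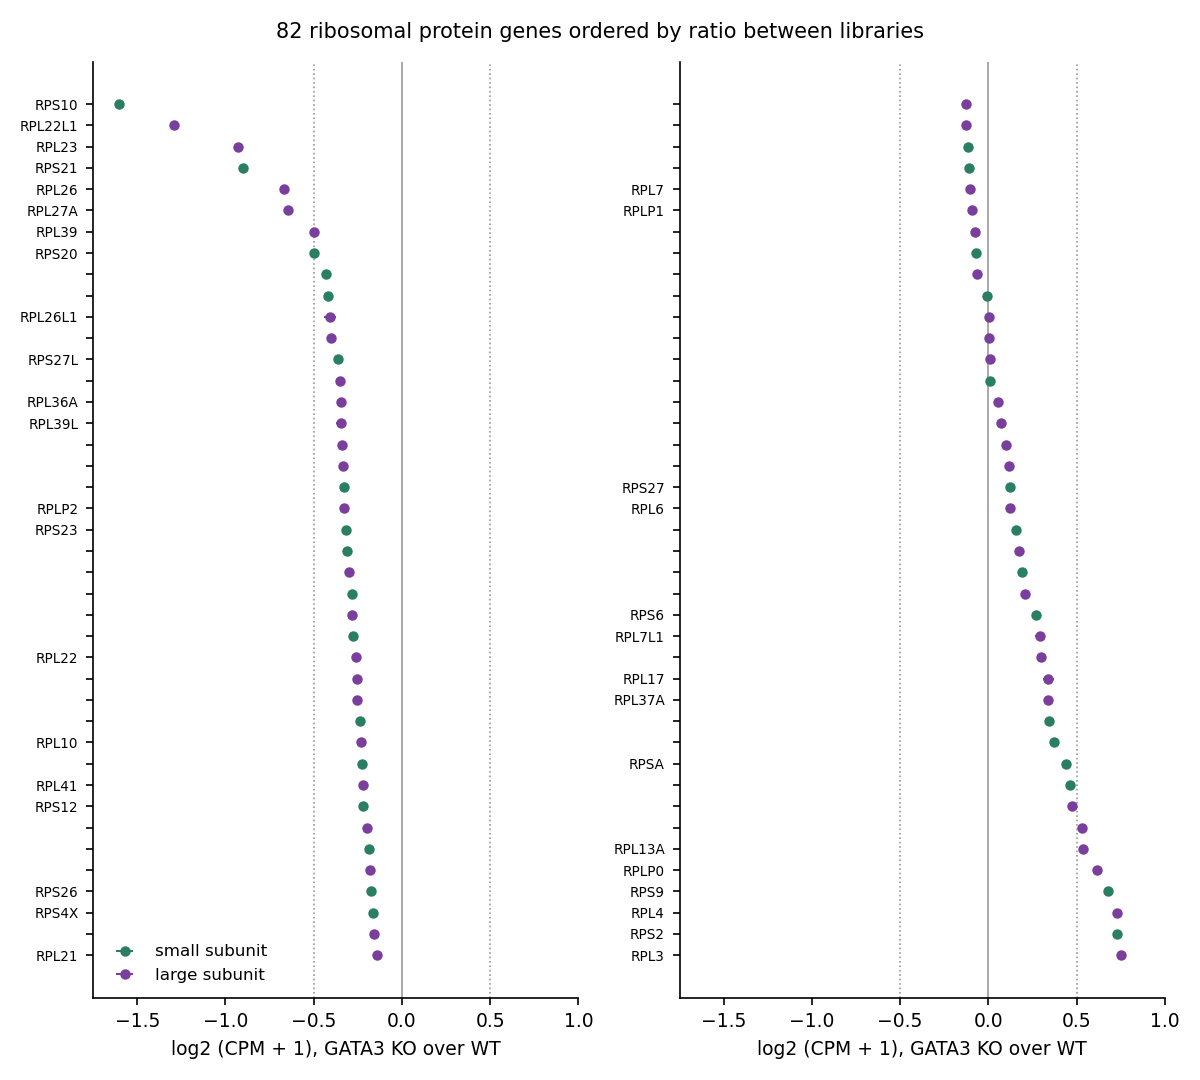
Log2 ratio of CPM plus 1, GATA3 KO over WT, for the 82 members of at least 20 CPM, ordered from the lowest at the top left to the highest at the bottom right. Bars are 95% counting intervals, mostly smaller than the points, dotted lines mark 0.5 in size, colours mark the subunit and names are given for members described in the text. RPS10 at -1.60 and RPL22L1 at -1.29 stand apart from a spread that otherwise runs from -0.93 to 0.75.

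RPS10 had the lowest ratio of all members. This 40S protein lies near the mRNA entry side and is among those mutated in Diamond-Blackfan anaemia. It had 1347 CPM (1340 to 1355) in the WT-labelled library and 443 CPM (439 to 446) in the GATA3 KO-labelled library, a log2 ratio of -1.60 (-1.62 to -1.59), and the second level was 32.8% of the first. The gene (ENSG00000124614, chromosome 6, 34417454 to 34426069, minus strand, protein-coding) overlaps the read-through gene RPS10-NUDT3. The read-through gene held 26 and 88 UMIs against 134182 and 77577 for RPS10, and the downstream gene NUDT3 had 35.9 and 47.8 CPM. Neither moved down with RPS10.

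RPL22L1, the paralog that can stand in for RPL22, was next. It had 1107 CPM (1100 to 1113) in the WT-labelled library and 451 CPM (448 to 454) in the other, a log2 ratio of -1.29. RPL23, a 60S protein that can bind the ubiquitin ligase MDM2, had 3161 and 1663 CPM and a ratio of -0.93. RPS21, a small protein of the 40S body, had 1914 and 1026 CPM and a ratio of -0.90. RPL26, next to the exit tunnel, and RPL27A, also of the large subunit, had ratios of -0.67 and -0.65. RPL39, which lines the exit tunnel, went from 4475 to 3164 CPM. These 7 members were the ones at or below -0.5.

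The members with the highest ratios included long proteins of the ribosome's core. RPL3, which reaches towards the peptidyl transferase centre, had 2259 CPM (2250 to 2269) in the WT-labelled library and 3799 CPM (3790 to 3809) in the GATA3 KO-labelled library, a log2 ratio of 0.75. RPS2 had the ratio 0.73 and became the most abundant member. RPL4, which lines the exit tunnel, went from 988 to 1637 CPM, also 0.73. RPS9, an early binder in 40S assembly, had a ratio of 0.68 with 1759 and 2812 CPM. RPLP0, the base of the stalk, had 2121 and 3252 CPM and a ratio of 0.62. RPL13A followed at 0.54.

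Partners in the ribosome did not keep the same ratio. The stalk is a complex of RPLP0 with pairs of RPLP1 and RPLP2, and while RPLP0 was higher by 0.62, RPLP1 had -0.09 and RPLP2 -0.33. Their 3 levels together were 11990 and 12140 CPM. All 4 X-linked members were lower, with RPL39 at -0.50, RPL36A at -0.35, RPL10 at -0.23 and RPS4X at -0.16. The 180 X-linked genes tested had a median of 0.16. On chromosome 19 the 12 members had a median of 0.17, against 0.42 for all 369 genes tested there.

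The ratio followed 2 properties of the genes. Across the 82 members, the rank correlation of the ratio with the GC content of the canonical transcript was 0.433, and with coding length 0.401, each given as a description over genes that share the libraries. Over all genes tested these were 0.553 (5507 genes) and 0.197 (5431 genes), so the relation with GC content was not limited to ribosomal proteins. The members in the lowest range of GC content, from 39.9 to 45.2%, had a median ratio of -0.27, with 5 of 28 higher. Those in the highest, from 51.5 to 63.6%, had a median of 0.10, with 18 of 27 higher. By coding length, members of up to 396 bases had a median of -0.24 and members of at least 576 bases had 0.10. RPS10 and RPS21, with 53.6% and 52.2% GC, stood outside this trend, as did RPL4 with 45.5%.

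**Figure D2:**
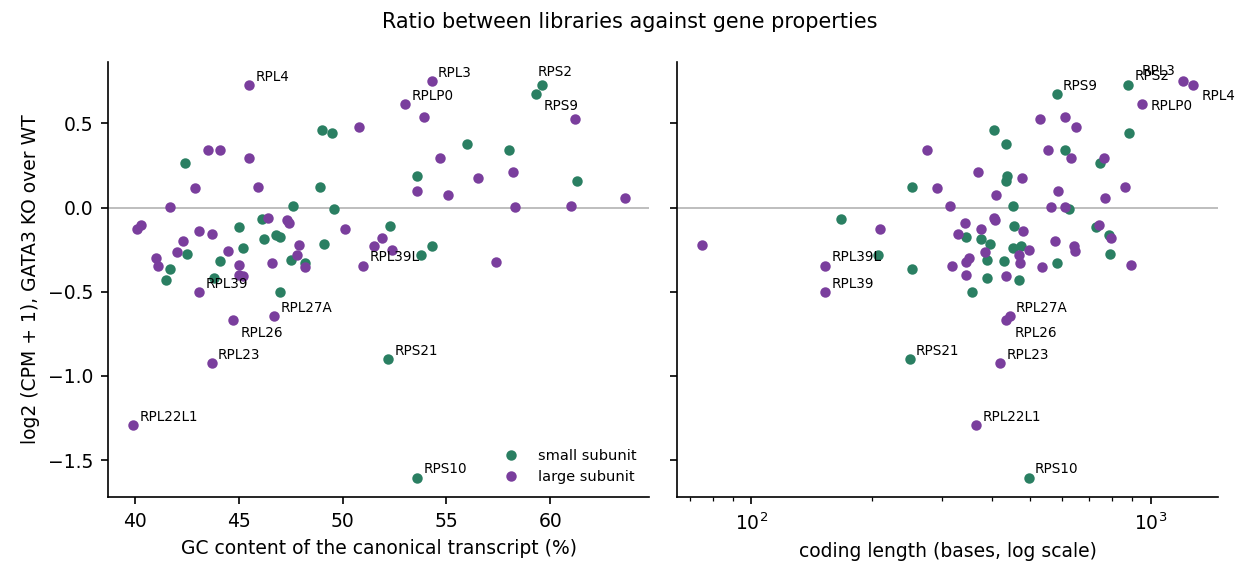
Log2 ratio of CPM plus 1, GATA3 KO over WT, of the 82 members against the GC content of the canonical transcript in percent (left) and the coding length in bases on a log scale (right), coloured by subunit. The ratio is higher to the right in both panels, with rank correlations of 0.433 and 0.401, and RPS10 at -1.60 lies far below the other members of its GC content.

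Taking the ratio as the distance from a smooth line on GC content over all genes, a choice made after seeing the data, left 7 of the 14 members past 0.5. They were RPS10 at -1.88, RPL22L1 at -1.14, RPS21 at -1.13, RPL23 at -0.88, RPL27A at -0.69, RPL26 at -0.65 and RPL4 at 0.72. RPL3 then had 0.45, RPLP0 0.36, RPS2 0.27, RPL13A 0.25 and RPS9 0.22, while RPL39 had -0.44. The same with coding length left 13 of the 14, all but RPL39. Whether GC content or length had a part in these ratios was not tested.

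Cells were also divided by lineage markers, after each had been thinned at random to 10000 UMIs, which left 2173 and 4038 cells. A cell counted as streak-marker with at least 2 UMIs of MIXL1, EOMES and TBXT together, genes of the primitive streak, and as amnion-marker with at least 2 UMIs of TFAP2A, HAND1 and ISL1. It counted as SOX2 with 2 UMIs of that pluripotency and neural factor and neither list. Shares and CPM by group were then taken from all UMIs of these cells. The WT-labelled library held 731 SOX2, 677 streak-marker, 91 amnion-marker and 648 no-marker cells, and the other held 2935, 76, 410 and 610. Cells that met both lists, 26 and 7, were kept apart as double-marker cells and are in neither marker group. Genes not used for the division followed it in part. CER1, an inhibitor made by the anterior streak, was at 190 CPM in streak-marker cells labelled WT and 1.74 CPM in SOX2 cells, and WNT6 was at 52.9 and 0.218 CPM in amnion-marker and SOX2 cells, with 57.9 and 0.238 CPM in the GATA3 KO-labelled library. KRT7, a keratin of the amnion and trophoblast, was at 16.1 and 7.26 CPM in amnion-marker and SOX2 cells labelled WT but at 8.74 and 9.45 CPM in those labelled GATA3 KO. NANOG, a pluripotency factor, was no lower in streak-marker than in SOX2 cells, with 78.9 and 75.1 CPM in the WT-labelled library and 127 and 54.99 CPM in the other. In the GATA3 KO-labelled library the streak-marker cells had 28.3 CPM of CER1 but only 0.283 CPM of MESP1, which was at 38.5 CPM in their counterparts labelled WT. POU5F1, a stem cell factor, was at 738 CPM or more in every group. SOX2 was at 5.09 CPM in amnion-marker cells labelled WT and at 86.3 CPM in those labelled GATA3 KO. In streak-marker cells it was at 41.5 and 150 CPM. In amnion-marker cells HAND1 was at 226 and 107 CPM and TFAP2A at 139 and 233 CPM, and MIXL1 was at 382 and 132 CPM in streak-marker cells. Groups of the same name were thus not matched in marker levels between the libraries.

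The summed share differed by group in the WT-labelled library and hardly in the GATA3 KO-labelled library. In the former it was 24.7% in SOX2 cells, 25.2% in no-marker cells, 25.5% in streak-marker cells and 25.9% in amnion-marker cells. In the latter these were 23.97%, 24.1%, 24.1% and 24.2%. Streak-marker cells were thus above SOX2 cells by 0.76 points in the WT-labelled library and by 0.118 in the other, and amnion-marker cells by 1.19 and 0.181 points. Without mitochondrial UMIs both differences were 0.70 and 1.15 points in the WT-labelled library and -0.060 and -0.265 points in the other, so the sign in the GATA3 KO-labelled library depended on the denominator. Median mitochondrial shares were 11.5%, 11.1% and 11.1% in the SOX2, streak-marker and amnion-marker cells labelled WT, and 11.3%, 10.9% and 9.46% in those labelled GATA3 KO.

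The GATA3 KO-labelled library was lower in every group. The difference was -0.751 points in SOX2 cells, -1.09 in no-marker cells, -1.39 in streak-marker cells and -1.76 in amnion-marker cells. The quartile ranges of the cells overlapped in each group. Marker levels within a group differed between the libraries, so these are not differences between matched cells.

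**Figure D3:**
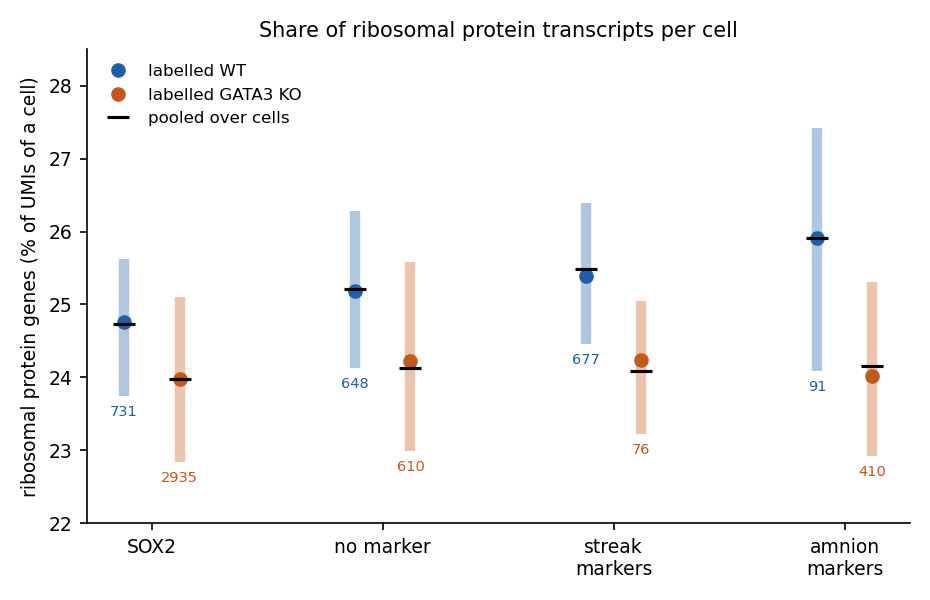
Ribosomal protein UMIs in percent of the UMIs of a cell, by marker group and library; points are medians over cells, bars run from the lower to the upper quartile, black dashes are pooled shares and numbers count cells. The pooled share runs from 24.7% to 25.9% across groups in the WT-labelled library and from 23.97% to 24.2% in the GATA3 KO-labelled library. The axis does not start at 0.

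Over the 4 marker groups, the ratio of a member between libraries ranged by a median of 0.094 on the log2 scale and by at most 0.31. RPS10 had -1.55 in SOX2, -1.63 in streak-marker, -1.60 in amnion-marker and -1.61 in no-marker cells. RPS2 lay between 0.69 and 0.82 and RPL3 between 0.65 and 0.78. The widest range was that of RPL7L1, with 0.34 in SOX2, 0.30 in streak-marker, 0.61 in amnion-marker and 0.36 in no-marker cells. RPL39L had -0.20, -0.21, -0.26 and -0.48, and RPL23 had -0.94, -0.90, -0.71 and -0.98, in the same order. RPL22L1 had -1.09, -1.11, -0.89 and -1.12 in SOX2, streak-marker, amnion-marker and no-marker cells, each smaller in size than the -1.29 over all kept cells. In the SOX2 cells 7 members were at or above 0.5 and 6 at or below -0.5, against 15.5% and 9.48% of 5515 genes. In streak-marker cells these were 6 and 8 members, against 19.1% and 12% of 5532 genes, in amnion-marker cells 9 and 7, against 22.9% and 9.18% of 5457, and in no-marker cells 7 and 7, against 18.4% and 9.98% of 5450.

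Between marker groups within a library, most members moved little. Comparing streak-marker with SOX2 cells, 68 of 82 members were higher in the WT-labelled library (median log2 ratio 0.04) and 50 in the other (0.02). Over all genes these medians were -0.020 and 0.006. None of the members reached 0.5 in size, where 6.14% and 5.38% of all genes were past it upward and 6.01% and 4.98% downward. Comparing amnion-marker with SOX2 cells, 51 and 46 members were higher. Their medians were 0.05 and 0.01, against -0.13 and -0.04 over all genes. There 1 member in each library was at or below -0.5, RPL22L1 in the WT-labelled library and RPL39L in the other, where 21.6% and 10.4% of all genes were.

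RPL22L1 was the member that differed most by group in the WT-labelled library. Its levels were 955 CPM in SOX2, 1098 in no-marker, 1321 in streak-marker and 660 in amnion-marker cells labelled WT. In those labelled GATA3 KO they were 449, 505, 614 and 356 CPM, in the same order. The log2 ratio of streak-marker over SOX2 cells was 0.47 and 0.45 in the WT-labelled and GATA3 KO-labelled libraries, and that of amnion-marker over SOX2 cells was -0.53 and -0.33. RPL22, its partner, was higher in amnion-marker cells, by 0.25 and 0.12. RPL22L1 thus made up 35.3% (35.0 to 35.6) of the UMIs of this pair in streak-marker cells labelled WT and 19.1% (18.4 to 19.8) in amnion-marker cells, and 22.7% and 14.1% in the GATA3 KO-labelled library. The intervals did not overlap within either library. Over all kept cells it made up 31.2% and 18.2%. The pair shared no run of 31 bases in the canonical transcripts.

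RPL39L differs from RPL39 at few positions and had 194 and 152 CPM. It was at 183 CPM in SOX2, 204 in no-marker, 199 in streak-marker and 134 in amnion-marker cells labelled WT, and at 159, 147, 172 and 112 CPM in those labelled GATA3 KO. Amnion-marker cells were the lowest in both libraries, at -0.45 and -0.51 against SOX2 cells, while RPL39 was at 0.13 and 0.03. RPL39L made up 4.15% and 4.59% of the UMIs of the pair over all kept cells and 2.74% and 3.35% in amnion-marker cells. Its canonical transcript shares 37 runs of 31 bases with that of RPL39 within its last 300 bases, where the tags lie, so its counts are uncertain.

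RPS27L was the member with the lowest ratio of streak-marker over SOX2 cells in both libraries. It had 552 CPM in SOX2, 599 in no-marker, 470 in streak-marker and 528 in amnion-marker cells labelled WT, and 415, 458, 335 and 426 CPM in those labelled GATA3 KO. Streak-marker over SOX2 was -0.23 and -0.31. RPL7L1, the nucleolar paralog of RPL7, was lower in amnion-marker than in SOX2 cells, by -0.44 and -0.17. RPL26L1 was higher in streak-marker cells by 0.16 and 0.18, with levels between 85.0 and 121 CPM in these groups of both libraries.

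Some other members also kept their direction in both libraries. RPL10, which joins the 60S subunit late in its assembly, was at 4688 CPM in SOX2, 4854 in no-marker, 4945 in streak-marker and 5692 in amnion-marker cells labelled WT, and at 3996, 4280, 4257 and 4980 CPM in those labelled GATA3 KO. Its amnion-marker over SOX2 ratios of 0.28 and 0.32 were the highest among the members. RPL6 had 0.23 and 0.12 in the same comparison, and RPL23 had -0.32 and -0.09. RPS26 was higher in streak-marker cells, by 0.14 and 0.18. RPLP0 was lower there by -0.02 and -0.08. For the streak markers, 28 members (34.1%) had intervals above 0 in both libraries and 10 (12.2%) below it, against 15.7% and 14.6% of 4922 genes. For the amnion markers these were 29 (35.4%) and 18 (21.95%), against 21% and 34.7% of 5081 genes. Intervals lay on opposite sides of 0 for 5 (6.10%) and 10 members (12.2%), against 1.99% and 1.73% of all genes. Abundant genes have narrower intervals, spread between cells is not in them, and these shares were not matched for level.

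**Figure D4:**
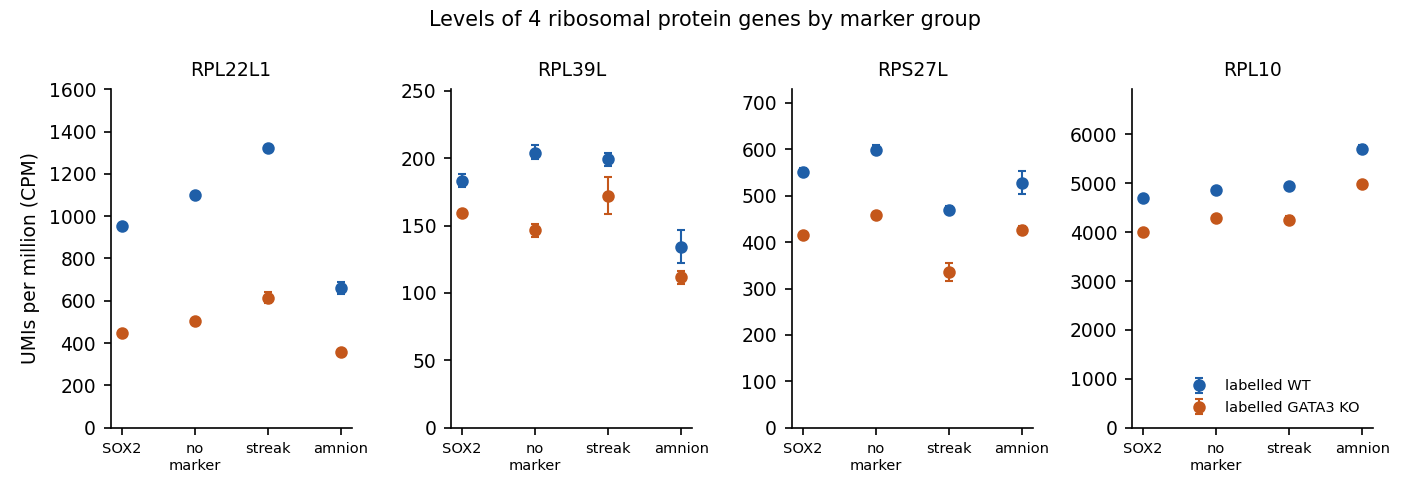
Level in CPM of RPL22L1, RPL39L, RPS27L and RPL10 in the 4 marker groups of both libraries, with 95% counting intervals. RPL22L1 is highest in streak-marker and lowest in amnion-marker cells of both libraries, RPL39L is lowest in amnion-marker cells, RPS27L is lowest in streak-marker cells and RPL10 is highest in amnion-marker cells.

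The remaining paralogs were small parts of their pairs or near the detection limit. RPS27L made up 13.5% and 10.1% of the UMIs of RPS27L and RPS27, RPL7L1 5.88% and 7.60% of its pair with RPL7, and RPL26L1 3.31% and 3.93% of its pair with RPL26. RPL3L made up 0.0196% and 0.00886% of its pair with RPL3. RPL10L made up 0.00103% and 0.00399% of its pair with RPL10.

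Members varied between cells beyond counting error. In cells thinned to 10000 UMIs, the variance of a gene's UMIs over their mean, which is 1 for counting alone, had a median of 1.62 over the members of at least 100 CPM in the WT-labelled library and of 1.52 in the other. Over all 1319 and 1373 genes of that level it was 1.14 and 1.104, a comparison that was not matched for level. The highest by the mean of both libraries were RPS12 with 3.12 and 2.70, RPS2 with 3.0 and 2.78, RPL10 with 2.31 and 2.55, RPL22L1 with 2.88 and 1.90, RPL23 with 3.14 and 1.42 and RPLP1 with 2.35 and 2.21. RPL17 and RPL36A, at low levels, had values of 1.01 and 1.05 each. RPS10, for all its difference between libraries, had 1.17 and 1.03.

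The spread of RPL23, itself chosen after its values were seen, differed between the libraries. A thinned cell labelled WT held a median of 31 RPL23 UMIs, with 5% of cells at or below 14 and 5% at or above 47. In the GATA3 KO-labelled library the median was 16, and these limits were 9 and 25. The wide spread was present in every marker group labelled WT, where the variance over mean was 3.04 in SOX2, 2.79 in streak-marker, 4.46 in amnion-marker and 3.11 in no-marker cells. In the other library it lay between 1.40 and 1.59. Across cells labelled WT the RPL23 count had r = 0.361 with the depth of the cell before thinning and r = -0.034 with its mitochondrial share. The part of depth in this spread was not tested.

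Between cells labelled WT, RPL23 varied with a subset of members and against another. Its correlation was 0.56 with RPL27A, 0.50 with RPS20, 0.48 with RPL21 and 0.36 with RPL37A. It was -0.25 with RPL6, -0.24 with RPS2, -0.21 with RPL3 and -0.19 with RPLP0. In the GATA3 KO-labelled library, RPL27A had 0.15, RPS20 0.18, RPS2 0.12, RPL3 0.07 and RPLP0 0.07 with RPL23. The correlation of RPL23 with RPL27A was 0.57, 0.54, 0.68 and 0.56 within the SOX2, streak-marker, amnion-marker and no-marker cells labelled WT. Several of the genes on each side, RPL23 and RPL27A on one, RPS2, RPL3 and RPLP0 on the other, were also those past 0.5 between the libraries, but RPL37A, with a ratio of 0.34, went with RPL23, and RPS12, with a ratio of -0.22, had -0.17 with it. Over 80 members, the rank correlation between r with RPL23 and the ratio was -0.111 for r in the WT-labelled library and 0.283 for r in the other. With depth before thinning, RPL27A and RPS20 had r = 0.253 and 0.298 in the WT-labelled library, and RPS2 had -0.127. In the other library these were -0.107, -0.022 and -0.239, and RPL23 had 0.076. The part of depth in these correlations was not tested. All these are descriptions over cells of 1 library, chosen after their values were seen.

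**Figure D5:**
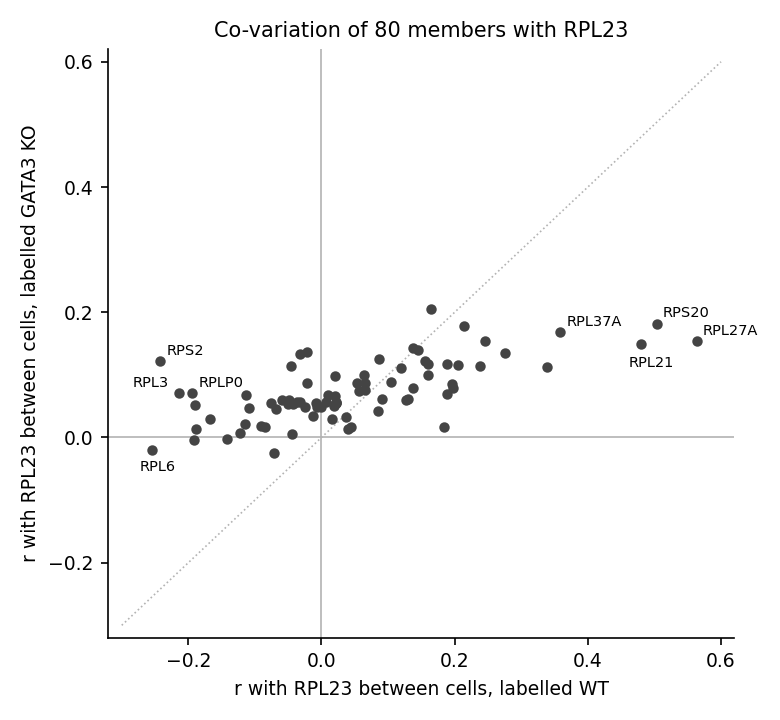
Pearson correlation between the UMIs of RPL23 and those of each of 80 other members of at least 100 CPM in both libraries, across cells thinned to 10000 UMIs, in the WT-labelled library (horizontal axis) and labelled GATA3 KO (vertical axis), with the line of equal values dotted. Values run from -0.25 to 0.56 in the WT-labelled library and stay nearer to 0 in the other, where RPL27A has 0.15.

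Most pairs of members had weak positive correlations. Over 3240 pairs of 81 members the median correlation between cells was 0.105 in the WT-labelled library and 0.169 in the other, and 14.2% and 3.52% of pairs were below 0. The correlation of a member with the sum of the others had a median of 0.374 and 0.435. It was 0.64 and 0.63 for RPS12. RPS2 had 0.23 and 0.69, so it was nearer to the rest in the GATA3 KO-labelled library. RPL7L1 had -0.04 and -0.06, the lowest in both. The mitochondrial share moved with these values too, RPS2 having r = -0.229 with it in the WT-labelled library and -0.446 in the other, and its part in them was not tested.

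Other genes of ribosome production were set beside the members. Of all 5516 genes tested, 3066 were higher in the GATA3 KO-labelled library, with a median log2 ratio of 0.07. Of 28 ribosome biogenesis genes, 26 were tested, of which 20 were higher in the GATA3 KO-labelled library and 6 lower, with a median log2 ratio of 0.32. At or above 0.5 were 9 of them (34.6%, against 17.8% of all genes). The summed level of the list was not higher, at 7503 and 7408 CPM. NPM1, its most abundant gene, was lower with 3636 and 2862 CPM (-0.35). NOP56, a core protein of the box C/D particles that guide methylation of ribosomal RNA, went from 100.5 to 226 CPM (1.16) and FBL, the methyltransferase of these particles, from 177 to 302 CPM (0.77). SBDS, which frees 60S subunits from EIF6, was the lowest at -0.75. Of 7 tested genes of RNA polymerase I, which makes the ribosomal RNA precursor, 5 were higher, from ZNRD1 at -0.52 to CD3EAP at 0.82.

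A mixed list of translation factors and other 5′ TOP genes, such as TPT1 and NACA, had 8 of 14 higher and 6 lower. Its median was 0.06, against 0.07 over all genes. EEF2, which moves the ribosome along the mRNA, had 0.70 with 675 and 1098 CPM and was the highest, and the initiation subunit EIF3E at -0.37 was the lowest. The mitochondrial ribosome, which is built from other genes, had 40 of 74 higher and a median of 0.02, from MRPL42 at -0.88 to MRPS18A at 0.76. Of 8 tested growth control genes, 5 were higher and 3 lower, with a median of 0.30. MYC, a driver of ribosome production, was the lowest with 29.2 and 14.3 CPM (-0.99), while MYCN had 30.2 and 43.2 CPM (0.50). RPS6KB2, a kinase of RPS6, was the highest with 0.56. Outside the symbol rule, RACK1 had 0.45, FAU -0.21 and RPL36AL -0.31.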

How the data were processed

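The deposited files hold raw UMI counts per gene and cell barcode. By the methods and file labels, libraries were of the 10x 3′ v3 kind and were counted by the authors in Cell Ranger 3.0.2 against GRCh38. They deposited the called cells without the limits on genes and mitochondrial share given in their methods, which were applied here. Doublets were not called. Symbols came from the files, positions, GC content and coding lengths from GENCODE v44 by gene identifier (84 of 84 members), and starts from RefSeq (67 of 84). CPM carry exact Poisson and shares Clopper-Pearson intervals, and ratios, with a pseudocount of 1 CPM, exact binomial ones. Ratios understate changes of genes with low counts, and all intervals cover counting error only. Genes were named as paralogs, stalk or X-linked members, or as the extremes of level, ratio between libraries or marker groups, and spread. The members, lists and rules were chosen with earlier results of these data known. Scripts were tested on simulated counts. Alternatives covered cell limits, pseudocount, scaling (edgeR 4.0.16), level minimum, marker minimum and thinning, and added after seeing the data, GC content, coding length and cells over 5% mitochondrial share. Python 3.11.15, scipy 1.17.1 and statsmodels 0.14.6 were used. Some genes are not reported here.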

Additional observations from a re-analysis of the deposited data

Results flagged for a closer look

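A few named members differed from SOX2 cells in opposite directions in the 2 libraries, with counting intervals that leave out 0 in each. Spread between cells is not in these intervals. In the 91 amnion-marker cells labelled WT, the variance over mean was 7.04 for RPS12 and 7.81 for RPLP1. The difference between the libraries was not tested, and all values are small. In streak-marker over SOX2 cells, RPL3 had a log2 ratio of 0.067 in the WT-labelled library and -0.06 in the GATA3 KO-labelled library, RPL41 had 0.020 and -0.041, and RPS27 had 0.013 and -0.045. In amnion-marker over SOX2 cells, RPS12 had 0.10 and -0.03, RPL41 had 0.0498 and -0.0517, and RPLP1 had 0.0558 and -0.0568.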

How the results depend on the processing

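No paired analysis was possible because there was 1 library per group, and for the same reason no replicate could be left out. The difference in summed share kept its sign throughout, and these alternatives moved it out of its narrow counting interval. It was -1.10 points with all deposited cells, -1.03 without the gene limit, -1.21 without the mitochondrial limit, -1.16 from 10000 UMIs, -1.47 without mitochondrial UMIs, -1.26 by medians and -1.54 by means of per-cell shares, -1.25 with marker groups and -1.28 with depth bins weighted equally. The median ratio of members was -0.15 with TMM scaling, -0.17 when scaled by UMIs outside members and mitochondrial genes, -0.22 after the GC line and -0.034 after the coding length line. Members past the limit numbered 0 higher and 2 lower (RPS10 and RPL22L1) at a limit of 1 (2.41% and 1.99% of all genes). They numbered 17 and 29 at 0.25 (34.1% and 24.1%), and 1 and 11 after the GC line (7.34% and 10%). After the coding length line they numbered 9 and 6 (13.1% and 12.2%). The share of members lower was thus above that of all genes at 0.25 and after the GC line, and close to it at 1. It was below that of all genes after the coding length line. With TMM scaling it was 9.76% against 11%, and when scaled by UMIs outside members and mitochondrial genes 9.76% against 12%. Streak-marker minus SOX2 cells labelled WT gave 0.512 and 0.831 points with a marker minimum of 1 and 3, 0.605 thinned to 20000, 0.701 without mitochondrial UMIs and 0.708 in cells over 5% mitochondrial share. Amnion-marker minus SOX2 cells labelled WT gave, in turn, 0.660, 1.41, 0.948, 1.15 and 1.09, with 1.25 thinned to 6000 UMIs outside members and 1.87 with all deposited cells. In the GATA3 KO-labelled library the streak difference changed sign, to -0.074 with a minimum of 3, -0.186 thinned to 6000 UMIs outside members and -0.060 without mitochondrial UMIs, and was 0.028 with a minimum of 1, 0.175 thinned to 20000 and 0.521 with all deposited cells. The amnion difference there was -0.266 without mitochondrial UMIs, 0.073 with a minimum of 3, 0.104 thinned to 20000, 0.024 thinned to 6000, 0.134 with all cells and 0.235 over 5%. The cause of these changes was not tested. Median variance over mean was 1.86 and 1.68 thinned to 20000, 1.79 and 1.89 with all deposited cells, and 1.51 and 1.41 over 5%. For single named members, leaving out the level minimums, 166 values stayed on their side of the limit in the same direction, 27 no longer passed it and 5 newly passed it. These counts include the limits of 1 and 0.25, which leave each ratio as it was. Part of the tally thus follows from the limit alone and does not show how stable the ratios were. With 76 streak-marker and 7 double-marker cells, the GATA3 KO-labelled library limits these groups most.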

Other observations

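Cells outside the limits or at their edges had other shares of ribosomal protein transcripts. The 271 and 506 cells with over 25% mitochondrial UMIs had pooled shares of 12.8% and 11.4% and per-cell medians of 6.86% and 5.96%, with medians of 7183 and 8690 UMIs. The 142 and 439 kept cells with at most 1% mitochondrial UMIs had pooled shares of 31.8% and 29.0% and per-cell medians of 31.1% and 25.7%, with medians of 3957 and 5404 UMIs. The 1012 and 1265 cells with more than 7500 genes had pooled shares of 25.2% and 24.4%, close to the kept cells of the same library.

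Pairs of abundant members varied together to different degrees. In the WT-labelled library the correlation between cells was 0.52 for RPL11 with RPL8 and 0.46 for RPS12 with RPLP1. In the GATA3 KO-labelled library these were 0.32 and 0.48. RPL22L1 and RPS27L had -0.16 and -0.11 in the same libraries.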
